A study of Mus musculus with 10 samples.

Results

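Acetyl-CoA carboxylase alpha (*Acaca*), acetyl-CoA carboxylase beta (*Acacb*), fatty acid synthase (*Fasn*), malonyl-CoA decarboxylase (*Mlycd*) and the Spot14 pair (*Thrsp* and *Mid1ip1*) are described here in interscapular brown adipose tissue (iBAT). They were chosen by symbol for their place in malonyl-CoA metabolism, and are 6 of the 27267 genes listed in the deposited values. All 6 were tested, as members of the 13714 genes whose normalized counts averaged at least 10 across the 10 libraries. Whole iBAT was sequenced from mice labelled as 5 wild-type (WT) and 5 *Mgp*-KO, all C57BL/6, male, 4 weeks of age and fed chow. *Mgp*, the gene of matrix Gla protein, is deleted globally in the *Mgp*-KO mice, so no cell type is singled out by the deletion. The study's methods describe the mice as 5 pairs without saying what a pair shares, and no source ties a library to a litter or day, so p-values measure the spread between these libraries.

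Acetyl-CoA carboxylases are biotin enzymes that make malonyl-CoA from acetyl-CoA. The alpha enzyme is cytosolic and its malonyl-CoA feeds fatty acid synthase, which builds palmitate from it with NADPH, whereas the beta enzyme sits at the outer mitochondrial membrane, where malonyl-CoA inhibits carnitine palmitoyltransferase 1 and thereby the entry of fatty acids into oxidation. Malonyl-CoA decarboxylase removes malonyl-CoA, the product of *Mid1ip1* binds the carboxylases and promotes their polymerization, and Spot14, the product of *Thrsp*, is a related thyroid hormone-responsive protein that can pair with it. Brown adipose tissue is known both for intense fatty acid synthesis and for intense fatty acid oxidation.

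The reads of *Mgp* went against 2 labels. *Mgp* had 0, 1 and 1 reads in the libraries labelled *Mgp*-KO 1, 2 and 3, and 309 and 282 reads in those labelled *Mgp*-KO 4 and 5, or 500 and 331 normalized counts, against 466 to 1146 in WT. The group is therefore called the libraries labelled *Mgp*-KO. The fold changes of the members and the differences of their ratios are also given for *Mgp*-KO 1 to 3 without the other 2. The gene lists and marker sums are not given that way. Replicates 1 to 3 of both genotypes had 19616366 to 22252260 reads on genes, of which 0.771% to 1.72% lay on mitochondrial ribosomal RNA genes, and replicates 4 and 5 had 9253793 to 13281873 reads, of which 6.50% to 16.7% lay on these genes. These 2 sets are not named as a batch in the sources. They differed in the levels of 5243 of the 13714 tested genes in limma with genotype in the model, and the members are given within each set throughout. WT 2 carries the label male but had 5094 normalized counts of *Xist*, a transcript of female tissue, while genes of the Y chromosome summed to 3.74.

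All 6 genes have a promoter window in RefSeq on GRCm38.p6, and the 250 bases before the start site are shown for the synthase, the Spot14 pair and the decarboxylase, since *Fasn* and *Thrsp* were low in every library labelled *Mgp*-KO and *Mlycd* and *Mid1ip1* were not. The windows lie at chr11:120824548-120824797 on the reverse strand (*Fasn*), chr7:97417551-97417800 on the reverse strand (*Thrsp*), chr8:119394644-119394893 on the forward strand (*Mlycd*) and chrX:10717115-10717364 on the forward strand (*Mid1ip1*). Capitals mark CCAAT, or ATTGG where it lies on the other strand, in the first 3 windows, and CCGCCC, which is GGGCGG on the other strand, in the last.
Fasn: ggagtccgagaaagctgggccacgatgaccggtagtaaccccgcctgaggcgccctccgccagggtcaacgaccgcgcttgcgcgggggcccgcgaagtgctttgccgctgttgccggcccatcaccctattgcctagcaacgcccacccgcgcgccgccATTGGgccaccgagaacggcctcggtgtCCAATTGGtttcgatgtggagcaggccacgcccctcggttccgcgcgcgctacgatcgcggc
Thrsp: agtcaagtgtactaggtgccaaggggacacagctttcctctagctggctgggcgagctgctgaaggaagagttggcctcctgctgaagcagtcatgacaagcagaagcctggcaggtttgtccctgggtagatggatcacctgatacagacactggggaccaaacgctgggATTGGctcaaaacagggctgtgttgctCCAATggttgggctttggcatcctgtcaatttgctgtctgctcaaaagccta
Mlycd: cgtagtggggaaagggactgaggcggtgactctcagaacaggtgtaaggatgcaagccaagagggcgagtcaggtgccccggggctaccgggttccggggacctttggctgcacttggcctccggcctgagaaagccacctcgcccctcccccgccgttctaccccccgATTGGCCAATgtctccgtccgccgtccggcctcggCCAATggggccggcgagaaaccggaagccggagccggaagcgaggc
Mid1ip1: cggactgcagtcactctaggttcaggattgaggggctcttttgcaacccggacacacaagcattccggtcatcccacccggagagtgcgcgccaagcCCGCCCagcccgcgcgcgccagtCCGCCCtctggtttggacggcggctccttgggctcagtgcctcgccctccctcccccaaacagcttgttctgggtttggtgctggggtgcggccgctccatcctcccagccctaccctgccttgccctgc

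Both strands were searched for the CCAAT box, for CACGTG as an E-box, for GGGCGG as a GC box, for TCACNCCAC as a sterol regulatory element and for AGGTCA as a nuclear receptor half-site. CCAAT stood in 3 places in *Fasn*, from -90 to -86, from -62 to -58 and from -59 to -55 relative to the start site, of which the last 2 overlap. *Thrsp* held it from -79 to -75 and from -52 to -48, and *Mlycd* held it from -81 to -77, from -76 to -72 and from -46 to -42. *Acacb* held it from -87 to -83. *Acaca*, low in every library labelled *Mgp*-KO, held neither CCAAT nor any of the other motifs in its window. CCAAT was thus held by some of the genes whose groups did not overlap (*Fasn* and *Thrsp*) and by some whose groups did (*Mlycd* and *Acacb*), and 33.8% of the 32851 windows of the same length in RefSeq hold it. GGGCGG, found in 32.7% of all windows, was held, of the 6 genes, by *Mid1ip1* alone, from -153 to -148 and from -130 to -125. CACGTG (6.02% of windows), TCACNCCAC (1.05%) and AGGTCA (14.0%) were in none of the 6 windows. The RefSeq start sites of *Acaca* and *Acacb* lie 65766 and 18983 bases inside the gene as GENCODE annotates it, and those of *Mid1ip1*, *Thrsp* and *Mlycd* 2352, 180 and 16 bases inside, so a window covers 1 start site of a gene that has others, and the windows of *Acaca* and *Acacb* are not shown.

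*Fasn* and *Acaca*, which code for the synthase and for the cytosolic carboxylase that feeds it, were low in every library labelled *Mgp*-KO. *Fasn* fell 14.5-fold and *Acaca* 5.73-fold, while *Acacb*, *Mlycd* and *Mid1ip1* overlapped between the genotypes. *Thrsp* lay lower in every library labelled *Mgp*-KO too, by 2.43-fold, but did not pass the threshold of an adjusted p under 0.05 in limma over all libraries. Of the 6 genes 2 were called lower in this test, against 0.0583% of the 13714 tested genes, and in 3 of the 6 all libraries labelled *Mgp*-KO lay below all WT libraries, against 2.11% of the tested genes. With a term for the 2 sets of replicates in limma, 3 of the 6 genes were called lower against 1.54% of the tested genes. In DESeq2 on the recovered reads 3 of the 6 were called lower against 1.26%, and with the set term 3 of the 6 against 3.91%. These genes were picked with earlier results of the series known, so the shares describe them and are no test.

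**Figure D1:**
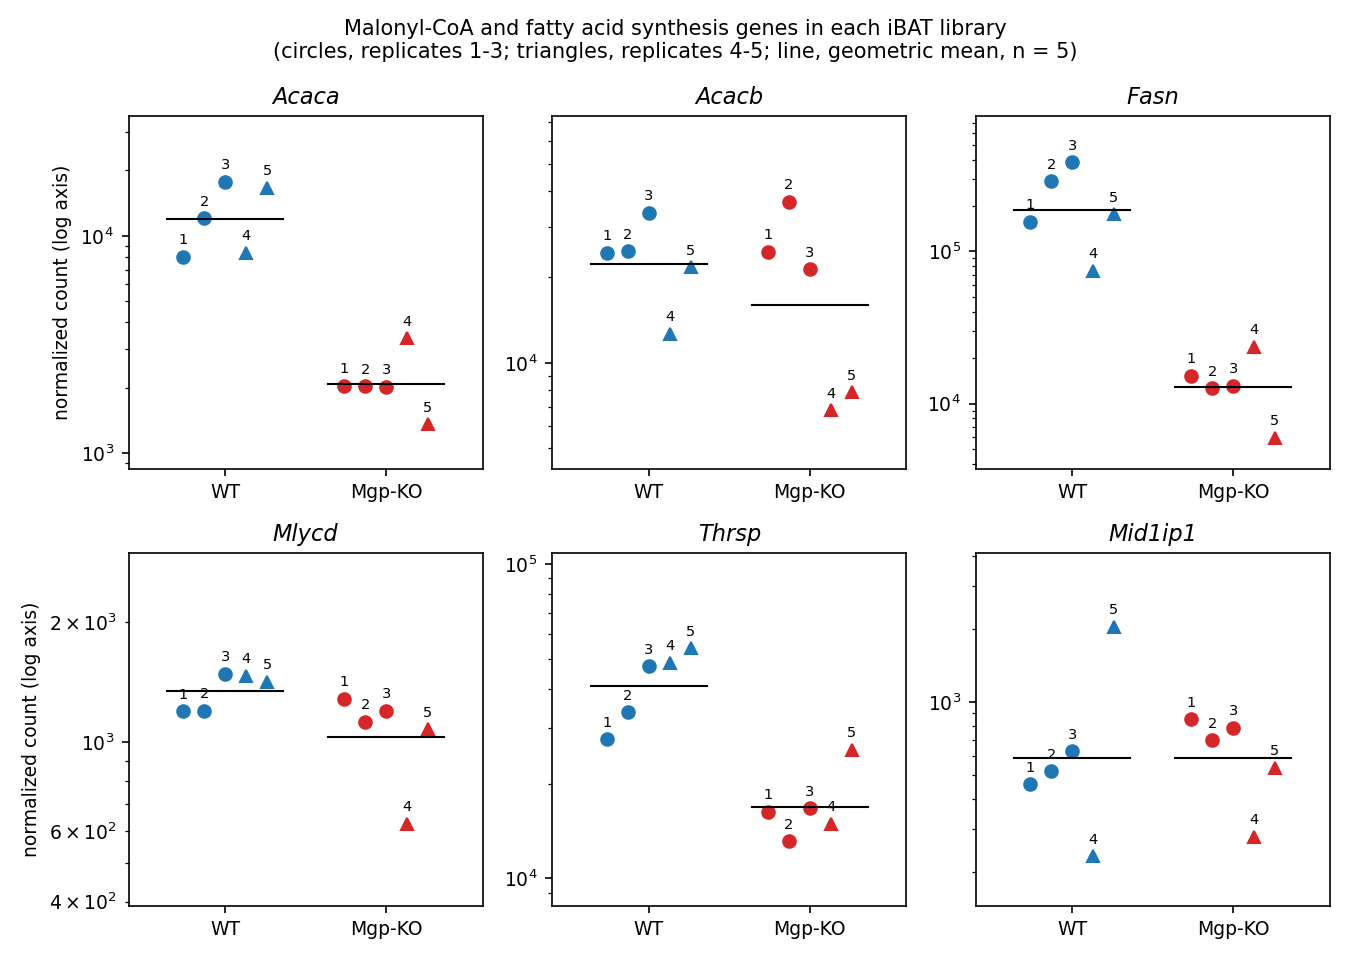
Normalized counts (log axis) of the 6 genes in each library, with the replicate number beside each point. Circles are replicates 1 to 3, triangles replicates 4 and 5, and the lines are geometric means of 5 libraries. *Fasn*, *Acaca* and *Thrsp* do not overlap between the groups, whereas *Acacb*, *Mlycd* and *Mid1ip1* do.

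In GENCODE (GRCm38, mm10) *Fasn* spans 120805846 to 120824547 of chromosome 11, reverse strand, with 10605 bases of exon. Its normalized counts were 156832, 289550, 386840, 74790 and 175522 in WT 1 to 5. The libraries labelled *Mgp*-KO held 15260, 12623, 13104, 23736 and 5989, in the order of their numbers 1 to 5, the order used for all genes. The highest library labelled *Mgp*-KO and the lowest WT library were both number 4, and the groups did not overlap. In WT 3 the gene took 2.59% of all reads counted on genes, and in *Mgp*-KO 5 it took 0.0385%. On the log2(normalized count + 1) scale, used for all fold changes here, the difference was -3.86 (standard error 0.48, 95% interval -4.90 to -2.82, adjusted p = 0.0255 from limma, lower in 5 of 5 libraries). By unadjusted p it ranked 2 among the tested genes. Among the genes by mean level it ranked 12 in WT and 77 in the libraries labelled *Mgp*-KO. Replicates 1 to 3 alone gave -4.25 (adjusted p = 0.00283, limma) and replicates 4 and 5 alone -3.26 (adjusted p = 0.675, limma). The gap between these 2 values was 0.99 (95% interval -0.91 to 2.89, adjusted p = 0.644 for the interaction in limma). Against *Mgp*-KO 1 to 3 alone it was -3.78 (adjusted p = 0.00883 from limma).

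*Acaca* spans 84129672 to 84401651 of chromosome 11, forward strand, with 10127 bases of exon. Its normalized counts were 8026, 12057, 17752, 8349 and 16642 in WT 1 to 5. The libraries labelled *Mgp*-KO held 2043, 2034, 2022, 3377 and 1359. The groups did not overlap, *Mgp*-KO 1 to 3 were nearly alike, and *Mgp*-KO 4 was the highest of its group and *Mgp*-KO 5 the lowest, as for *Fasn*. The log2 fold change was -2.52 (standard error 0.30, 95% interval -3.17 to -1.86, adjusted p = 0.0255, limma, lower in 5 of 5 libraries), and *Acaca* had the smallest unadjusted p of the 13714 tested genes. Replicates 1 to 3 alone gave -2.56 (adjusted p = 0.00567, limma) and replicates 4 and 5 alone -2.46 (adjusted p = 0.675, limma). The difference between the sets, 0.10, had a 95% interval from -1.28 to 1.47. Against *Mgp*-KO 1 to 3 alone the log2 fold change was -2.55 (adjusted p = 0.00501 from limma). In limma without WT 2, WT 3, WT 5, *Mgp*-KO 1 or *Mgp*-KO 3, the adjusted p of both *Fasn* and *Acaca* lay between 0.0770 and 0.126, while *Fasn* stayed between -3.92 and -3.60 and *Acaca* between -2.51 and -2.37. Within replicates 4 and 5 limma called 0 of 13711 genes, with 872 at an unadjusted p under 0.05. *Fasn* and *Acaca* were among the 872, as was *Acacb* (unadjusted p = 0.0435 from limma). In DESeq2 over all libraries the log2 fold change was -3.94 for *Fasn* and -2.54 for *Acaca*.

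*Acacb*, the mitochondrial carboxylase, spans 114146535 to 114250761 of chromosome 5, forward strand, with 9073 bases of exon. Its normalized counts were 24327, 24686, 33719, 12641 and 21660 in WT 1 to 5. Those labelled *Mgp*-KO had 24576, 36734, 21277, 6797 and 7873. The groups overlapped, since *Mgp*-KO 1 to 3 lay within or above the WT range and *Mgp*-KO 4 and 5 below it. The log2 fold change was -0.49 (standard error 0.47, 95% interval -1.52 to 0.54, adjusted p = 0.777 from limma). It was -0.03 within replicates 1 to 3 (95% interval -0.58 to 0.53, adjusted p = 0.961 from limma) and -1.18 within replicates 4 and 5 (95% interval -2.31 to -0.05, adjusted p = 0.675 from limma). The difference between the sets was -1.15 (95% interval -2.18 to -0.12), with an unadjusted p of 0.0319 and an adjusted p = 0.469 for the interaction in limma. Against *Mgp*-KO 1 to 3 alone the value turned to 0.26 (95% interval -0.44 to 0.96). Of the 6 genes *Acacb* was the 1 called lower in replicates 4 and 5 than in replicates 1 to 3 when both genotypes were averaged, by -1.30 on the log2 scale (adjusted p = 0.00496 from limma). The average covers unequal differences, of -0.72 in WT and -1.87 in the libraries labelled *Mgp*-KO. Of all tested genes, 19.9% were called lower in replicates 4 and 5 in that test. *Acacb* is also expressed in skeletal muscle. The summed normalized counts of 6 skeletal muscle markers were 28698 in *Mgp*-KO 2, the library with the highest *Acacb*, and 29313 in *Mgp*-KO 5, the second lowest in *Acacb*. They were 35.3 to 275 in the other libraries labelled *Mgp*-KO and 36.7 to 5276 in WT. Their part in the levels of *Acacb* was not tested.

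*Mlycd*, which codes for the decarboxylase that removes malonyl-CoA, spans 119394878 to 119411102 of chromosome 8, forward strand, with 2128 bases of exon. Its normalized counts were 1196, 1199, 1482, 1464 and 1417 in WT 1 to 5. With the label *Mgp*-KO they were 1285, 1124, 1200, 625 and 1079. WT spanned a factor of 1.24, the narrowest range of the 6 genes, and the groups overlapped. The log2 fold change was -0.38 (standard error 0.21, 95% interval -0.84 to 0.07, adjusted p = 0.575 from limma). It was -0.10 within replicates 1 to 3 (95% interval -0.40 to 0.20) and -0.81 within replicates 4 and 5 (95% interval -1.68 to 0.06), and the difference between the sets, -0.71, had an adjusted p = 0.483 in limma's test of the interaction. The value rests in part on *Mgp*-KO 4, which with 386 reads was the lowest library. Without it the log2 fold change was -0.20, and against *Mgp*-KO 1 to 3 alone -0.16 (95% interval -0.50 to 0.17).

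*Thrsp*, the Spot14 gene, spans 97412938 to 97417730 of chromosome 7, reverse strand, with 1277 bases of exon. Its normalized counts were 27720, 33699, 47349, 48447 and 54016 in WT 1 to 5. Under the label *Mgp*-KO the values were 16287, 13099, 16725, 14911 and 25669. The groups did not overlap, with *Mgp*-KO 5 closest to WT. The log2 fold change was -1.28 (standard error 0.27, 95% interval -1.88 to -0.68, adjusted p = 0.0935 from limma, lower in 5 of 5 libraries). Replicates 1 to 3 alone gave -1.21 (adjusted p = 0.0312, limma), where 3 of the 6 genes were called lower against 1.71% of the tested genes, and replicates 4 and 5 alone gave -1.39 (95% interval -2.84 to 0.07, adjusted p = 0.675 from limma). The sets differed by -0.18 (95% interval -1.20 to 0.85). The same log2 fold change of -1.28 had an adjusted p = 0.0182 from limma with a set term and an adjusted p = 0.000221 from DESeq2, so the call of *Thrsp* turned on the model while its size did not. Against *Mgp*-KO 1 to 3 alone it was -1.42 (adjusted p = 0.0259 from limma).

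*Mid1ip1*, the partner of *Thrsp* and activator of the carboxylases, spans 10715013 to 10719690 of the X chromosome, forward strand, with 2071 bases of exon. Its normalized counts were 459, 521, 629, 233 and 2049 in WT 1 to 5. The other group, labelled *Mgp*-KO, had 850, 698, 787, 280 and 537. WT spanned a factor of 8.79, from replicate 4 to replicate 5, and held every library labelled *Mgp*-KO within its range. The log2 fold change was -0.01 (standard error 0.50, 95% interval -1.10 to 1.08, adjusted p = 0.997 from limma), and the lower end of the interval is a 2.14-fold lower level. Within replicates 1 to 3 all libraries labelled *Mgp*-KO lay above all WT libraries, by 0.54 (95% interval 0.19 to 0.90, adjusted p = 0.0947 from limma), and within replicates 4 and 5 the value was -0.83 (95% interval -3.003 to 1.34). The difference between the sets was -1.38 (95% interval -3.54 to 0.78, adjusted p = 0.581 for the interaction in limma). Without WT 5 the log2 fold change over the rest was 0.44, and without *Mgp*-KO 4 it was 0.26. The gene is X-linked, and WT 2, with its *Xist* reads, lay between WT 1 and WT 3. The antisense gene *Gm14493*, at a mean of 2.85 normalized counts, shares 543 bases with its exons (26.2%), and reads there cannot be told apart without the strand.

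**Figure D2:**
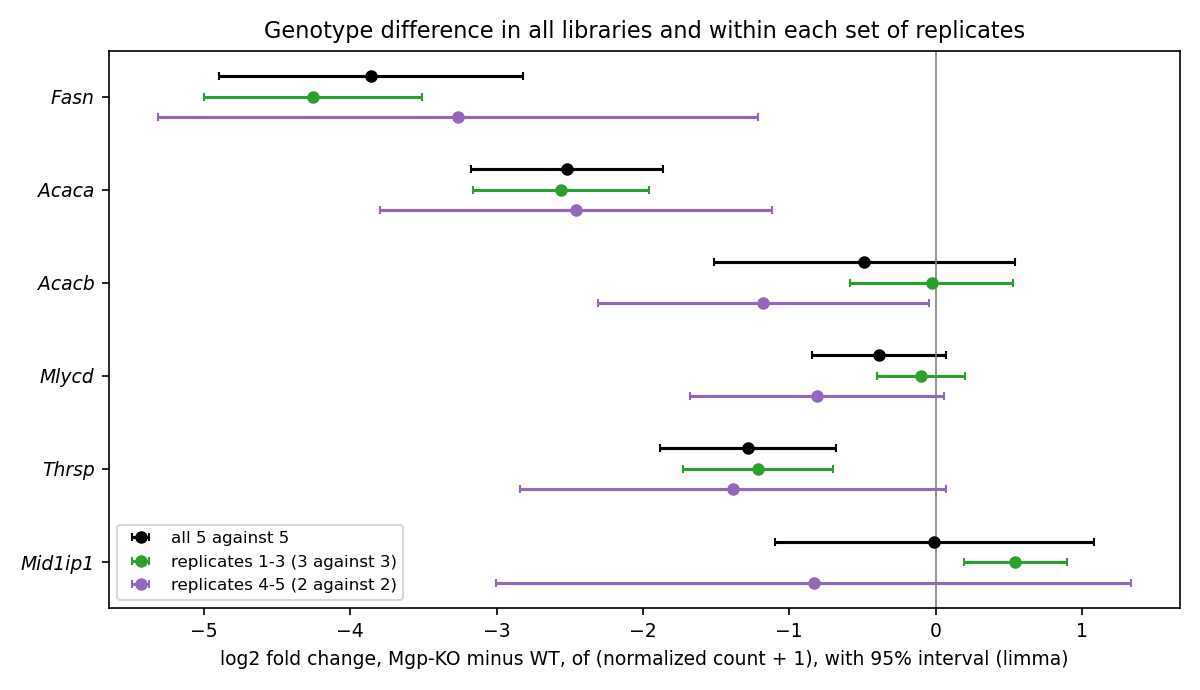
Log2 fold change of (normalized count + 1), libraries labelled *Mgp*-KO minus WT, for the 6 genes over all libraries (black), within replicates 1 to 3 (green) and within replicates 4 and 5 (purple). Bars are 95% intervals from limma. The intervals of *Fasn* and *Acaca* lie wholly below 0 in all 3 fits, and *Thrsp* has like values with an interval that just reaches 0 in replicates 4 and 5. *Acacb* and *Mlycd* also have values below 0 in all 3 fits. Their intervals reach above 0, except that of *Acacb* in replicates 4 and 5. *Mid1ip1* lies on both sides of 0.

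In whole tissue, fewer cells of a type and less RNA per cell cannot be told apart. The summed normalized counts of 6 brown adipocyte markers were 72863 to 164116 in WT and 24563 to 60324 in the libraries labelled *Mgp*-KO. The 2 ranges of the sum did not overlap, as for *Fasn* and *Acaca*, but the 6 markers were not alike. *Ucp1*, which codes for the uncoupling protein of brown fat, made up most of this sum in WT, with a difference of -2.70 on the log2 scale (standard error 0.51, adjusted p = 0.0601, limma), and was the 1 marker of the 6 whose groups did not overlap. The elongase *Elovl3* and the thyroid hormone deiodinase *Dio2* were at -3.64 (standard error 1.13) and -3.35 (standard error 1.27), the lipid droplet protein gene *Cidea* at -0.44 (standard error 0.27), the coactivator gene *Ppargc1a* at -0.16 (standard error 0.39) and the transcription factor gene *Zic1* at 0.51 (standard error 0.44). For *Zic1* the sign differed between the sets, at 1.37 in replicates 1 to 3 alone and -0.77 in replicates 4 and 5 alone. Of these 6 markers 0 were called in limma over all libraries, with 3 at an unadjusted p under 0.05 (10.4% of all tested genes), and 3 were called lower with the set term (1.54%) and 2 in DESeq2 (1.26%). The sums of 6 markers of adipocytes of any kind overlapped, at 219988 to 574492 in WT and 224780 to 449420 in the libraries labelled *Mgp*-KO, and were higher in replicates 4 and 5 of both genotypes. *Fabp4* and *Lpl* made up most of this sum. Of its 6 markers 4 had a log2 fold change below 0, with a median of -0.25, 0 were called in limma without or with the set term or in DESeq2, and 1 had an unadjusted p under 0.05, *Plin1*, a lipid droplet coat protein gene, at -1.29 (standard error 0.52, adjusted p = 0.415 from limma). No marker in either list was at 0 in any library. Markers of endothelial cells summed to 15809 to 25001 in WT and 18616 to 44110 in the libraries labelled *Mgp*-KO, fibroblast and progenitor markers to 8260 to 20347 and 7184 to 16916, myeloid markers to 407 to 779 and 496 to 777, lymphocyte markers to 29.3 to 47.9 and 22.9 to 108, and white adipocyte markers to 435 to 715 and 431 to 2082. Over all libraries, the sums of all cell type marker lists other than the brown markers overlapped between the groups. Within each set the endothelial sums did not overlap. They were 15809 to 18235 in WT 1 to 3 against 18616 to 22021 in *Mgp*-KO 1 to 3. In replicates 4 and 5 they were 25001 and 16303 in WT against 44110 and 25975 with the label *Mgp*-KO. All 5 endothelial markers had a log2 fold change above 0 (median 0.43), and 0 were called in limma without or with the set term or in DESeq2. The part of any of these in the results was not tested.

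Compared per kb of exon, which allows levels of different genes to be set side by side, *Thrsp* and *Fasn* led in WT. In WT the means were 33082 ± 8641 (SD, n = 5) normalized counts per kb for *Thrsp*, 20434 ± 11517 for *Fasn*, 2580 ± 832 for *Acacb*, 1241 ± 448 for *Acaca*, 635 ± 67.0 for *Mlycd* and 376 ± 350 for *Mid1ip1*. The ranges of neighbours in this order overlapped except between *Fasn* and *Acacb* and between *Acaca* and *Mlycd*. *Fasn* exceeded *Thrsp* in WT 2, and *Mid1ip1* exceeded *Mlycd* in WT 5. Otherwise the WT libraries shared this order. For the label *Mgp*-KO the means were 13577 ± 3811 for *Thrsp*, 2144 ± 1375 for *Acacb*, 1334 ± 602 for *Fasn*, 499 ± 121 for *Mlycd*, 304 ± 110 for *Mid1ip1* and 214 ± 72.7 for *Acaca*, again in normalized counts per kb. *Mgp*-KO 1, 2, 3 and 5 shared the order of these means, in which *Acacb* stood above *Fasn* and *Acaca* came last. *Mgp*-KO 4 had the order of WT 1, 3 and 4. All neighbours in the order of the means overlapped in range except *Thrsp* and *Acacb*.

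**Figure D3:**
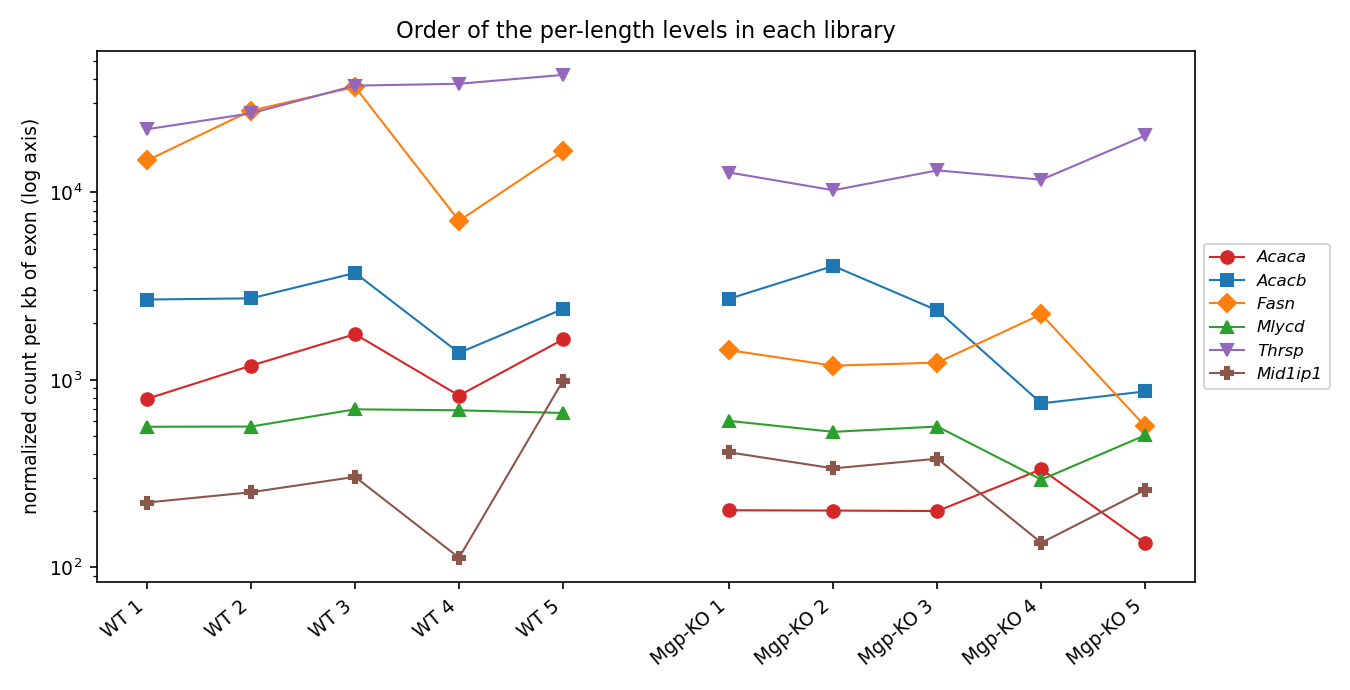
Normalized count per kb of exon (log axis) of the 6 genes in each library, with lines joining the libraries of a group for the eye alone. *Acaca* lies above *Mlycd* and *Mid1ip1* in all WT libraries and below both in *Mgp*-KO 1, 2, 3 and 5.

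The ratio of the cytosolic to the mitochondrial carboxylase, taken within each library, was lower in the libraries labelled *Mgp*-KO. *Acaca* to *Acacb* stood at 0.330, 0.488, 0.526, 0.660 and 0.768 in WT 1 to 5. With the label *Mgp*-KO it stood at 0.0831, 0.0554, 0.0951, 0.497 and 0.173. The groups overlapped through *Mgp*-KO 4, which lay above WT 1 and WT 2, while the other 4 libraries labelled *Mgp*-KO lay below all WT libraries. The mean log2 ratio, of normalized count + 1, was -0.91 ± 0.47 (SD, n = 5) in WT against -2.94 ± 1.23 with the label *Mgp*-KO, a difference of -2.03 (p = 0.0238, two-sided exact permutation test, 0.0476 adjusted over 4 ratios). Per kb of exon the median ratio was 0.472 in WT and 0.0852 in the libraries labelled *Mgp*-KO. Within replicates 1 to 3 the difference was -2.53 with no overlap, and within replicates 4 and 5 it was -1.28 with no overlap, where the smallest two-sided exact permutation p that 3 against 3 and 2 against 2 libraries allow is 0.10 and 0.333. Against *Mgp*-KO 1 to 3 alone it was -2.81 (p = 0.0179, the smallest that the exact permutation test allows there). In replicates 1 to 3 the ratio did not overlap between the genotypes while *Acacb* did, and in replicates 4 and 5 the levels of both carboxylases were lower in the libraries labelled *Mgp*-KO.

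The ratio of *Fasn* to *Acaca*, the synthase against the enzyme that makes its substrate, did not overlap between the groups. It was 19.5, 24.0, 21.8, 8.96 and 10.5 in WT 1 to 5. With the label *Mgp*-KO it was 7.47, 6.21, 6.48, 7.03 and 4.41. WT 4 and 5 lay closest to the libraries labelled *Mgp*-KO. The mean log2 ratio was 3.98 ± 0.65 (SD, n = 5) in WT against 2.64 ± 0.30 with the label *Mgp*-KO, a difference of -1.34 (p = 0.00794, two-sided exact permutation test and the smallest it allows, 0.0317 adjusted over 4 ratios). Replicates 1 to 3 gave -1.70 and replicates 4 and 5 gave -0.80, with no overlap in either set. In both sets the difference of *Fasn* was thus larger than that of *Acaca*. Against *Mgp*-KO 1 to 3 alone the log2 ratio differed by -1.23 (p = 0.0357, two-sided exact permutation test).

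The ratio of *Acacb* to *Mlycd*, the carboxylase at mitochondria against the decarboxylase, ranged from 8.63 to 22.8 in WT and from 7.30 to 32.7 in the libraries labelled *Mgp*-KO. It was 20.3, 20.6 and 22.8 in WT 1 to 3 and 19.1, 32.7 and 17.7 in *Mgp*-KO 1 to 3. The log2 difference over all libraries was -0.10 (p = 0.810, two-sided exact permutation test). The ratio of *Thrsp* to *Mid1ip1* was 60.4, 64.7, 75.2, 208 and 26.4 in WT 1 to 5. Those labelled *Mgp*-KO had ratios of 19.2, 18.8, 21.3, 53.2 and 47.8. The groups overlapped through WT 5, the library with the highest *Mid1ip1*, and did not overlap within replicates 1 to 3. The log2 difference was -1.27 (p = 0.0476, two-sided exact permutation test, 0.0635 adjusted over 4 ratios), -1.75 within replicates 1 to 3 and -0.55 within replicates 4 and 5.

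**Figure D4:**
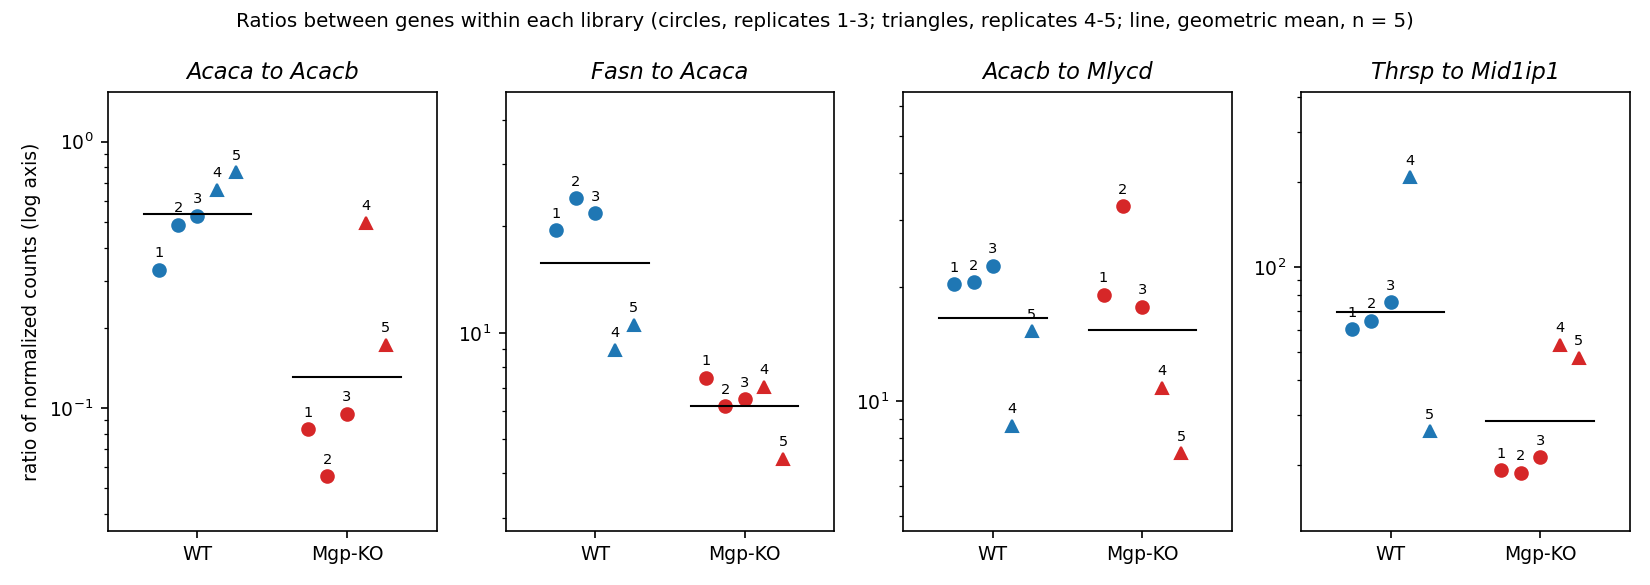
Ratio of normalized counts (log axis) within each library for the 4 gene pairs, with the replicate number beside each point. Circles are replicates 1 to 3, triangles replicates 4 and 5, and lines geometric means of 5 libraries. *Fasn* to *Acaca* does not overlap between the groups, and *Acaca* to *Acacb* overlaps through *Mgp*-KO 4.

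Across the libraries of a genotype, the order of *Fasn* was compared with that of *Acaca*. Of the 10 pairs of WT libraries 8 were in the same order for both genes, and of the 10 pairs of libraries labelled *Mgp*-KO 9 were. The pairs *Acaca* and *Mlycd*, *Acaca* and *Mid1ip1*, and *Fasn* and *Mid1ip1* also reached 8 of 10 in WT, and 5, 5 and 6 of 10 with the label *Mgp*-KO. *Mlycd* and *Mid1ip1* had the same order in 10 of 10 pairs of libraries labelled *Mgp*-KO and in 6 of 10 WT pairs. *Acacb* had the same order as *Mlycd* in 8 of 10 pairs with the label *Mgp*-KO and 5 of 10 in WT, and as *Mid1ip1* in 8 of 10 and 7 of 10. *Thrsp* did not follow *Acaca* in the libraries labelled *Mgp*-KO, with 2 of 10 pairs in the same order against 7 of 10 in WT. There *Mgp*-KO 5 was the highest library for *Thrsp* and the lowest for *Acaca* and *Fasn*. *Acacb* and *Fasn* shared their order in 9 of 10 WT pairs and in 4 of 10 pairs of libraries labelled *Mgp*-KO. WT 3 was the highest of WT 1 to 3 for each of the 6 genes. These orders are descriptions over 5 libraries per group, and libraries of 1 set share depth and the share of mitochondrial ribosomal RNA.

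Over the 10 libraries, in which the difference between genotypes also enters, the tested genes with the highest Pearson's r of log2(normalized count + 1) to *Acaca* were *Pcyt2* (0.981), *Fasn* (0.978) and *Garnl3* (0.975). *Pcyt2* codes for an enzyme of phosphatidylethanolamine synthesis. Those most like *Fasn* were *Atp4b* (0.978), *Acaca* (0.978) and *Pth1r* (0.958), where *Atp4b* had a mean of 32.3 normalized counts in WT and 0.648 in the libraries labelled *Mgp*-KO. *Thrsp* was most like *Taldo1* (0.984), *Psph* (0.973) and *Pdhb* (0.968), which code for transaldolase of the pentose phosphate pathway, an enzyme of serine synthesis and a subunit of pyruvate dehydrogenase. *Acacb* was most like *Atg13* (0.984), *Gpbp1l1* (0.982) and *Chrnb2* (0.980), *Mlycd* like *Phb2* (0.988), *Nfu1* (0.987) and *Dnajc14* (0.983), and *Mid1ip1* like *Pdgfc* (0.925), *Tigar* (0.905) and *Cp* (0.905). *Acaca* and *Fasn* were thus among the 3 genes closest to each other, whereas the r of *Acaca* with *Acacb* was 0.325, which put *Acacb* at position 2726 among the genes ranked by likeness to *Acaca*. The r of *Thrsp* with *Mid1ip1* was 0.112.

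Most of the genes that supply acetyl-CoA and NADPH to these enzymes were called lower once the set was in the model. Of 10 tested genes of this list 1 was called lower in limma over all libraries (0.0583% of all tested genes), 8 with the set term (1.54%) and 7 in DESeq2 (1.26%), and none was called higher in any of the 3. All 10 had a log2 fold change below 0, with a median of -1.50 against 0.03 over all tested genes, and in 8 of the 10 every library labelled *Mgp*-KO lay below every WT library (2.11% of all tested genes). *G6pdx* and *Aacs*, which make NADPH and acetoacetyl-CoA, overlapped between the groups (adjusted p = 0.254 and 0.314 from limma, 0.0420 and 0.124 with the set term), so that *G6pdx* was called with the set term and *Aacs* in none of these 3 fits. *Idh1*, another source of NADPH, was at -0.49 and was called in none of them either (adjusted p = 0.164 from limma with the set term). *Slc25a1*, the mitochondrial citrate carrier, fell from 8898 ± 4058 to 2056 ± 313 normalized counts (SD, n = 5), a difference of -2.003 on the log2 scale (adjusted p = 0.0471 from limma). *Acss2*, which makes acetyl-CoA from acetate, was at -2.07 (adjusted p = 0.0504 from limma, 0.0134 with the set term). *Me1* and *Pgd*, which make NADPH as malic enzyme and in the pentose phosphate pathway, were at -2.45 and -1.63, and *Acly*, the ATP citrate lyase, went from 31518 ± 15988 to 6391 ± 1924 normalized counts (SD, n = 5) at -2.16 (adjusted p = 0.0575 from limma, 0.0165 with the set term).

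Of the desaturases and elongases, which modify the palmitate that *Fasn* makes, 8 genes were tested, 1 was called lower in limma (0.0583% of all tested genes), 3 with the set term (1.54%) and 2 in DESeq2 (1.26%). Their median log2 fold change was -1.15. *Scd1*, a stearoyl-CoA desaturase, fell from 366244 ± 145900 to 26210 ± 31013 normalized counts (SD, n = 5), a difference of -4.36 on the log2 scale (adjusted p = 0.0322 from limma). The elongases *Elovl3*, *Elovl5* and *Elovl6* were at -3.64, -1.06 and -1.30 (adjusted p = 0.0104, 0.0346 and 0.0780 from limma with the set term). *Fads1*, a desaturase of polyunsaturated fatty acids, was at 0.16 (standard error 0.22).

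The kinases that act on the carboxylases were not called. AMPK phosphorylates and inactivates both carboxylases, and of 10 tested AMPK subunits and upstream kinases 0 were called in limma over all libraries, in limma with the set term or in DESeq2, and 1 had an unadjusted p under 0.05 in limma over all libraries, as 10.4% of all tested genes did. Their median log2 fold change was -0.14. *Prkaa2*, a catalytic subunit, was at -0.92 (standard error 0.40, unadjusted p = 0.0426 from limma), and *Prkag2*, a regulatory subunit, at 0.50 (standard error 0.39). *Stk11*, the upstream kinase, went from 2212 ± 153 to 1964 ± 145 normalized counts (SD, n = 5).

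Acetyl-CoA carboxylase needs biotin, which holocarboxylase synthetase (*Hlcs*) attaches and biotinidase (*Btd*) recycles. Of 7 tested genes of biotin handling and the other biotin carboxylases 0 were called in limma without or with the set term, 3 had an unadjusted p under 0.05 in limma over all libraries (10.4% of all tested genes), and 1 was called lower, *Btd*, in DESeq2 (adjusted p = 0.0479 from DESeq2, with 1.26% of all tested genes called lower). Their median log2 fold change was -0.61, with *Mccc2* at -0.85, *Mccc1* at -0.82, *Btd* at -0.53 and *Hlcs* at -0.22 (standard error 0.33). In 3 of the 7, *Btd*, *Mccc1* and *Mccc2*, all libraries labelled *Mgp*-KO lay below all WT libraries, against 2.11% of all tested genes. Of 8 tested genes of mitochondrial fatty acid synthesis, a separate pathway that also uses malonyl units, 0 were called in limma over all libraries, with 2 at an unadjusted p under 0.05 (10.4% of all tested genes), and 1 was called lower with the set term (1.54%) and in DESeq2 (1.26%). This was *Acsf3*, which makes malonyl-CoA in mitochondria, at -0.82 (standard error 0.20, adjusted p = 0.141 in limma, 0.0408 with the set term). The median of this list was -0.27.

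In the carnitine shuttle, whose first enzyme malonyl-CoA inhibits, 0 of 6 tested genes were called in limma over all libraries, in limma with the set term or in DESeq2, with a median log2 fold change of -0.54 and 2 at an unadjusted p under 0.05 in limma over all libraries (10.4% of all tested genes). *Cpt1b*, the muscle and brown fat form of the enzyme, was at -0.49 (standard error 0.32), at 0.05 within replicates 1 to 3 and -1.31 within replicates 4 and 5. *Cpt1a* was at 0.21 (standard error 0.19), *Cpt2* at -0.81 (standard error 0.24) and the carrier *Slc25a20* at -0.66 (standard error 0.25). Of 15 tested transcriptional regulators of lipogenic genes 0 were called in limma over all libraries, with 1 at an unadjusted p under 0.05 (10.4% of all tested genes), and 1 was called lower, *Nr1h3*, the liver X receptor alpha, with the set term (1.54%) and in DESeq2 (1.26%), at -0.57 (adjusted p = 0.0431 from limma with the set term). *Srebf1*, which codes for a sterol regulatory element-binding protein that drives lipogenic genes, was at -0.97 (standard error 0.49, adjusted p = 0.531 from limma), and *Mlxipl*, the carbohydrate response element-binding protein, at -0.22 (standard error 0.25). The median of the list was -0.15. Of 3 tested Tribbles genes, adaptors linked to the degradation of acetyl-CoA carboxylase, 0 were called in limma without or with the set term, with 1 at an unadjusted p under 0.05 over all libraries (10.4% of all tested genes), and 1 was called lower in DESeq2 (1.26%). This was *Trib1*, at -0.98 (adjusted p = 0.201 from limma, 0.0257 from DESeq2), with *Trib2* at 0.51 and *Trib3* at 0.79 (standard error 0.42), with a median of 0.51.

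**Figure D5:**
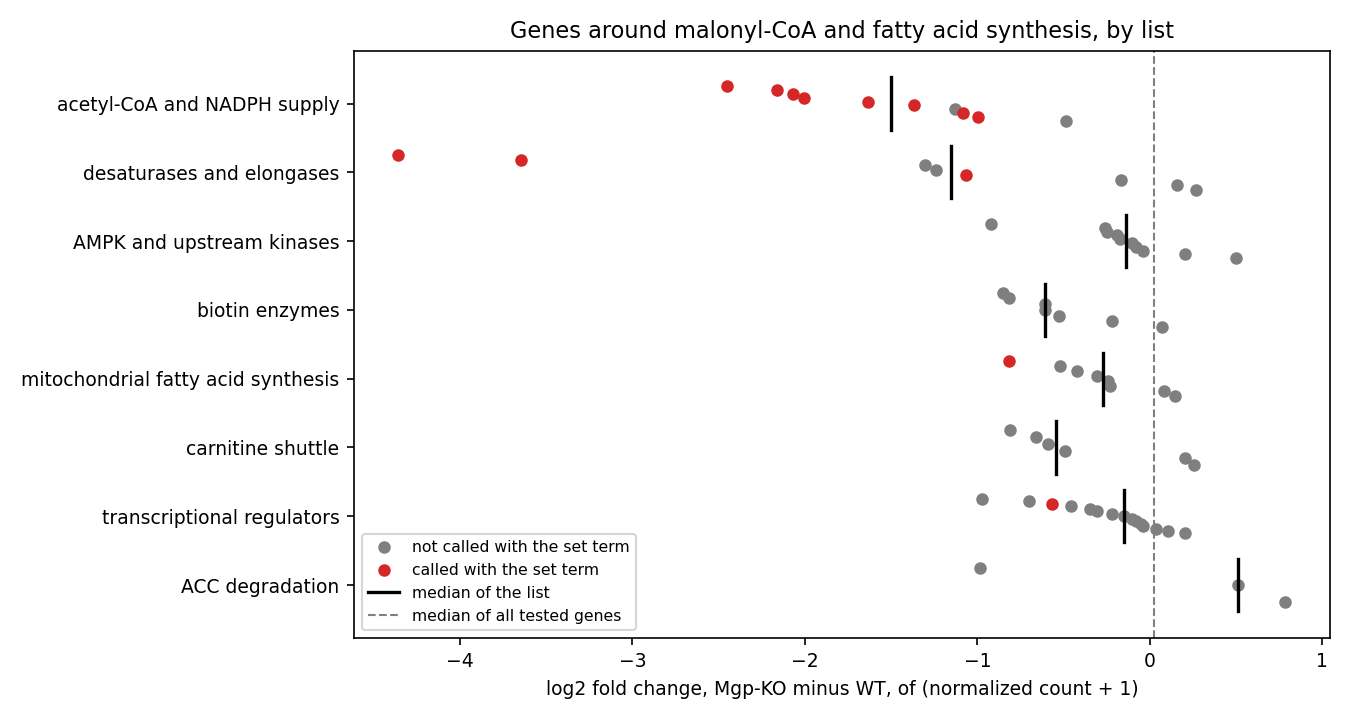
Log2 fold change of (normalized count + 1), libraries labelled *Mgp*-KO minus WT, of the tested genes in 8 lists around malonyl-CoA and fatty acid synthesis. Each point is a gene, red where limma with the set term called it, black bars are list medians and the dashed line is the median of all tested genes (0.03). The supply list lies wholly below 0, and the AMPK list lies on both sides of the dashed line, with 8 of its 10 genes below 0.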

How the data were processed

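The authors aligned 50-base single reads to mm10 with STAR 2.5.3a, took gene counts from the aligner, and deposited normalized counts, a signal per gene equal to the count over a DESeq2 1.38.3 size factor. Which annotation release they used, and whether strand was used, is not given in the sources used here. All values (100%, tolerance 0.01 reads, largest deviation 0.000614) fell on whole reads, which were thereby recovered. Libraries held 9253793 to 22252260 reads on genes, and a floor of 3 reads came to 2.15 to 5.19 normalized counts, a floor for counting error alone, since no molecular identifiers mark independent molecules. On the recovered reads DESeq2 called 374 genes and edgeR 3.

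Groups and replicate numbers follow the sample labels. Tests used limma 3.58.1 under R 4.3.3 (lmFit, then eBayes with its trend option) on log2(normalized count + 1), where the mean over libraries was at least 10, without a block, adjusted by the Benjamini-Hochberg method over all genes tested, with a threshold of 0.05. This scale understates the change of low genes. Ratios were compared with two-sided exact permutation tests. Set terms, an interaction of genotype and set, other pseudocounts, filters, scalings and tools (edgeR 4.0.16, DESeq2 1.42.0), each set alone, and each library left out were run as alternatives. Some alternatives for the interaction, the set difference and the ratios were chosen after seeing the data. The limma fits were tested on simulated data. Coordinates and exon lengths come from GENCODE M21 (GRCm38), in which 25666 listed symbols (94.1%) were found, and promoter windows from RefSeq.

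The 6 genes and all lists were chosen with earlier results of these data known. Besides them and *Mgp*, the text names from each list at most the 4 tested genes with the smallest p, list genes whose role is described, and for each of the 6 the 3 tested genes with the highest Pearson's r. *Xist* and *Gm14493* were outside this rule and were named after their values were seen.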

Additional observations from a re-analysis of the deposited data

Results flagged for a closer look

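In 1 of the 20 groups of 5 libraries examined (6 genes and 4 ratios in both genotypes), 1 library stood apart from the others by Dixon's test at the 95% level, as chance gives in about 1 in 20 groups. Dixon's test was run on log2 values, not on the counts themselves. *Mlycd* in *Mgp*-KO 4 had 625 normalized counts. On the log2(normalized count + 1) scale its gap to the nearest library was 0.757 of the group's whole range. The 4 other libraries labelled *Mgp*-KO had 1079 to 1285. In *Mgp*-KO 4, 16.7% of the reads lay on mitochondrial ribosomal RNA genes, the largest share of the 10 libraries, and *Mgp* had 500 normalized counts. Their part in the value of *Mlycd* was not tested.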

How the results depend on the processing

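The directions of *Fasn*, *Acaca*, *Thrsp* and *Mlycd* and of the ratios *Acaca* to *Acacb*, *Fasn* to *Acaca* and *Thrsp* to *Mid1ip1* held under every alternative run, those of *Acacb*, *Mid1ip1* and the ratio *Acacb* to *Mlycd* did not, and the alternatives run for the interaction and the set difference changed no direction and no call. The count of called genes, 9 over all libraries, was 29 with a pseudocount of 10, 1 with no filter, 15 with a mean of at least 50, 3 in edgeR, 374 in DESeq2, 1152 in DESeq2 with a set term, 324 in limma with a set term, 505 within replicates 1 to 3, 0 within replicates 4 and 5 (872 at an unadjusted p under 0.05 in limma), 267 against *Mgp*-KO 1 to 3, and 0 to 93 without 1 library. In limma it was 0 without WT 2, WT 3, WT 5, *Mgp*-KO 1 or *Mgp*-KO 3 (1060 to 1419 at an unadjusted p under 0.05), 34 without WT 4, 93 without *Mgp*-KO 4 and 5 without *Mgp*-KO 5. The cause was not tested.

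*Fasn* lost its call with no filter on low values (-3.86, adjusted p = 0.0695 from limma, with 27267 genes tested) and within replicates 4 and 5 (-3.26), as did *Acaca* there (-2.46), where fewer libraries remain. Without 1 library *Fasn* ranged from -4.19 to -3.58 and *Acaca* from -2.69 to -2.37, each past the threshold in 5 of 10 such fits. *Thrsp* passed the threshold in limma with the set term (-1.28), in DESeq2 (-1.28), in DESeq2 with the set term (-1.28, adjusted p = 1.03e-07 from DESeq2), within replicates 1 to 3 (-1.21) and against *Mgp*-KO 1 to 3 (-1.42), and in 0 of 10 fits without 1 library (-1.43 to -1.18, adjusted p from 0.0641 to 0.248 in limma). *Acacb* turned to 0.26 against *Mgp*-KO 1 to 3 and ranged from -0.79 to -0.18 without 1 library. *Mid1ip1* was 0.54 within replicates 1 to 3, 0.39 against *Mgp*-KO 1 to 3, and -0.34 to 0.44 without 1 library (0.02 without WT 3, 0.44 without WT 5, 0.26 without *Mgp*-KO 4 and 0.03 without *Mgp*-KO 5). The size also varied with the tool. Over all libraries *Mid1ip1* was -0.30 in DESeq2 and -0.30 in edgeR, against -0.01 in limma. *Acacb* was -0.27 in DESeq2 and -0.28 in edgeR, against -0.49 in limma, and neither gene was called. The cause was not tested.

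The ratios could not reach 0.05 within a set by the exact permutation test: in the first 3 replicates and in the last 2, *Acaca* to *Acacb* was -2.53 and -1.28, *Fasn* to *Acaca* -1.70 and -0.80, and *Thrsp* to *Mid1ip1* -1.75 and -0.55. *Thrsp* to *Mid1ip1* was -1.82 against *Mgp*-KO 1 to 3 (p = 0.0536, exact permutation test) and -1.62 to -0.88 without 1 library, with p from 0.0238 to 0.119. *Acacb* to *Mlycd* was 0.0731 within replicates 1 to 3, 0.43 against *Mgp*-KO 1 to 3 and -0.37 to 0.17 without 1 library (0.01 without WT 3, 0.02 without *Mgp*-KO 4 and 0.17 without *Mgp*-KO 5). *Acaca* to *Acacb* ranged from -2.51 to -1.72 and *Fasn* to *Acaca* from -1.54 to -1.19 without 1 library, all with p under 0.05.

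The replicate numbers did not pair the libraries by the correlation of same-numbered deviations from the group means, which ran from 0.0559 to 0.527 (mean 0.390, against 0.416 for other numbers in the same set), and replicates 4 and 5 alone correlated best with their own number. With the replicate block 270 genes were called in limma and 222 in edgeR, *Thrsp* (-1.28 in limma, -1.29 in edgeR) had an adjusted p of 0.0366 from limma and 0.0317 from edgeR, and *Mid1ip1* was 0.0288 in edgeR. With the block as exact sign flips of the 5 same-numbered differences, whose smallest p is 0.0625, *Acaca* to *Acacb* (-2.03) and *Fasn* to *Acaca* (-1.34) had p = 0.0625 and *Thrsp* to *Mid1ip1* (-1.27) p = 0.125 by the exact permutation test. The block changed no other call of the 6 genes. At these depths each of the 6 genes had at least 159 reads in every library.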
